A study of Mus musculus with 9 samples.

Results

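The oligoadenylate synthetase (OAS) genes of the mouse were followed in FDCPmix, a multipotent hematopoietic progenitor line, after knockdown (KD) of the transcription factors GATA2 or PU.1 (gene Spi1). The members were all array probes whose accession belongs to Oas1a, Oas1b, Oas1g, Oas2, Oas3, Oasl1 or Oasl2, a rule of gene family that uses no measured value, although the family was picked with earlier results of these data known. Of 41174 probes on the array, 8 belong to 6 of these 7 genes (1 each for Oas1a, Oas1g, Oasl1 and Oasl2, and a pair each for Oas2 and Oas3), and no probe was matched to Oas1b. Of these, 7 probes of 5 genes were bright enough to be tested among 36585 probes, and the Oas1g probe was not. There were 9 single-color arrays, 3 for each group. Cells kept in self-renewal conditions had received a GFP-marked lentivirus, either the empty vector (EV), the vector with a Gata2 shRNA or the vector with a Pu.1 shRNA. Viable GFP+ cells were sorted on day 5 and their total RNA was hybridized, so all 3 groups share the transduction, the vector and the sort. EV carried no shRNA, so each comparison with EV differs in the presence of an shRNA as well as in the gene targeted. These cannot be told apart there, and a part of the shRNA itself was not tested. The 3 samples of a group were transduced as triplicates of 1 cell line. The p-values measure the spread between them, which in the main fit includes differences between the array slides. The samples are not told apart by hairpin sequence.

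OAS enzymes bind double-stranded RNA, as viruses make it, and then join ATP into short oligoadenylates with an unusual linkage. These oligoadenylates are signalling molecules of the antiviral response. Most OAS genes are interferon-stimulated, with low levels at rest, and interferon raises them through factors that bind the interferon-stimulated response element (ISRE) in their promoters. In the mouse the OAS1 branch has been duplicated many times. Oas1a and Oas1g encode active synthetases, Oas2 and Oas3 encode proteins built from repeated OAS units, and the OAS-like proteins carry a ubiquitin-like tail, of which Oasl2 keeps synthetase activity and Oasl1 does not.

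In the RefSeq gene order all of these genes lie on chromosome 5. Oasl2 and Oasl1 are direct neighbours. At a separate place on the chromosome Oas2, Oas3, Oas1e, Oas1c, Oas1b, Oas1f, Oas1h, Oas1g and Oas1a follow each other with no other protein-coding gene or pseudogene of the table between them, and Oas1d comes after 1 pseudogene. Oas1b is listed there as a transcribed pseudogene.

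RefSeq promoter windows on GRCm38.p6 were given for 5 of the 7 members (not Oas1b and Oas2). They were searched on both strands, from 250 bases before the start site to 50 after it, for the core of the ISRE, GAAA followed by any 2 bases and a further GAAA. The core occurred in 3 of the 5 windows, those of Oas1a, Oas1g and Oas3, and in 1131 of all 32851 promoter windows (3.44%). The 120 bases before the start site are shown for these 3 genes and, because its level moved most, for Oasl2, with every match in capitals. The stretches are chr5:120907526-120907645 on the minus strand for Oas1a, chr5:120887614-120887733 on the minus strand for Oas1g, chr5:120777660-120777779 on the minus strand for Oas3 and chr5:114896814-114896933 on the plus strand for Oasl2, each directly upstream of the annotated transcript start.
Oas1a: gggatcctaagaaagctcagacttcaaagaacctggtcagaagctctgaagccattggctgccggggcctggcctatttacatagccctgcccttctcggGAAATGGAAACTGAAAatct
Oas1g: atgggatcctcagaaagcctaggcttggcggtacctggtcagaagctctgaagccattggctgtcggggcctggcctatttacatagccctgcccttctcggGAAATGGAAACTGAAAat
Oas3: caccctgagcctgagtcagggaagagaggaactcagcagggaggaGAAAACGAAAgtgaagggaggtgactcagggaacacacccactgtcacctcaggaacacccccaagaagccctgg
Oasl2: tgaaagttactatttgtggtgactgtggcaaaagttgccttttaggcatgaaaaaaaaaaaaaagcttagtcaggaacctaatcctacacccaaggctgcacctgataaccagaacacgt
In Oas1a the capitals are 2 overlapping cores at bases -20 to -11 and -14 to -5 from the start, and Oas1g carries the same letters at -18 to -9 and -12 to -3. Over the 250 upstream bases Oas1a and Oas1g were identical at 212 of 256 aligned columns (82.8%), against 45.7% to 49.8% for the other pairs of member windows. Oas3 had 1 core at -75 to -66. The windows of Oasl1 and Oasl2 did not hold these letters, which says nothing of sequence outside the window. A match is a description of the letters and not a binding site. A composite of an ETS and an IRF motif (GGAA, any 2 bases, then GAAA) was found in 2.72% of all windows and in no member window on either strand. The same held for GGAAGTG, a sequence that PU.1 can bind (11% of all windows). The GATA sequence AGATAAG, found in 3.04% of all windows, was also in no member window. At such shares, absence from so few windows says little. Only these exact letters were searched. The paper also lists shorter GATA and ETS forms and GATA repeats, which were not searched. The printed stretches do hold shorter forms, TGATAA in Oasl2 and GGAAG in Oas3. The member windows are thus not shown to lack GATA or ETS sequences.

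A level is the log2 intensity of a probe minus the 75th percentile of its array, so that a level of 0 is a fairly bright probe. They are read across groups for 1 probe and not between probes, because probes hybridize with unequal efficiency. Each adjusted p comes from limma, corrected by Benjamini-Hochberg over the 36585 tested probes, and a gene was called where it was under 0.05. Across the arrays 80.4% to 89.6% of spots read well above background and no spot was saturated. The third EV array stands apart in its dim probes. Its lowest level well above background was -5.04, while that of the other arrays lay between -6.41 and -5.85. The comparison of Oasl2 between Pu.1 KD and EV, whose call depends on this array, is given with and without it. The arrays were on 3 slides with 1 array of each group on each, so every change could also be read within a slide. The targeted genes went with the labels. Gata2 fell by 1.61 in Gata2 KD (SE 0.23, adjusted p = 0.00414), and Spi1 fell by 1.73 in Pu.1 KD (SE 0.16, adjusted p = 0.00178) and rose by 1.39 in Gata2 KD (adjusted p = 0.00120).

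After Gata2 knockdown, 3 of the 5 tested members rose and none fell. They were Oas1a, Oas2 and Oasl2, with Oas2 counted by a probe that stands for the gene only through its Gata2 KD level. In EV, Oasl2 was well above background on 0 of 3 arrays and Oas2 on 2 of 3. Among all 15808 tested genes 4.21% were called higher and 2.95% lower in this comparison. The median change of the 5 members was 1.06, where that of all tested genes was -0.09. After Pu.1 knockdown limma called 0 of the 5 (2, Oas1a and Oasl2, had an unadjusted p under 0.05), beside 1.45% of all genes higher and 2.16% lower. The median change was 0.08 for the members and -0.04 for all genes. Counted by probe, 4 of the 7 tested member probes lay above EV with no overlap between the groups in Gata2 KD, and none below it, where 7.65% and 10.9% of all tested probes did so. In Pu.1 KD 1 of the 7 lay above EV without overlap and 1 below it, where 7.93% and 9.32% of all probes did. Both comparisons use the same 3 EV arrays. In a bulk sample, a change in the share of cells of a type and a change in RNA per cell cannot be told apart.

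**Figure D1:**
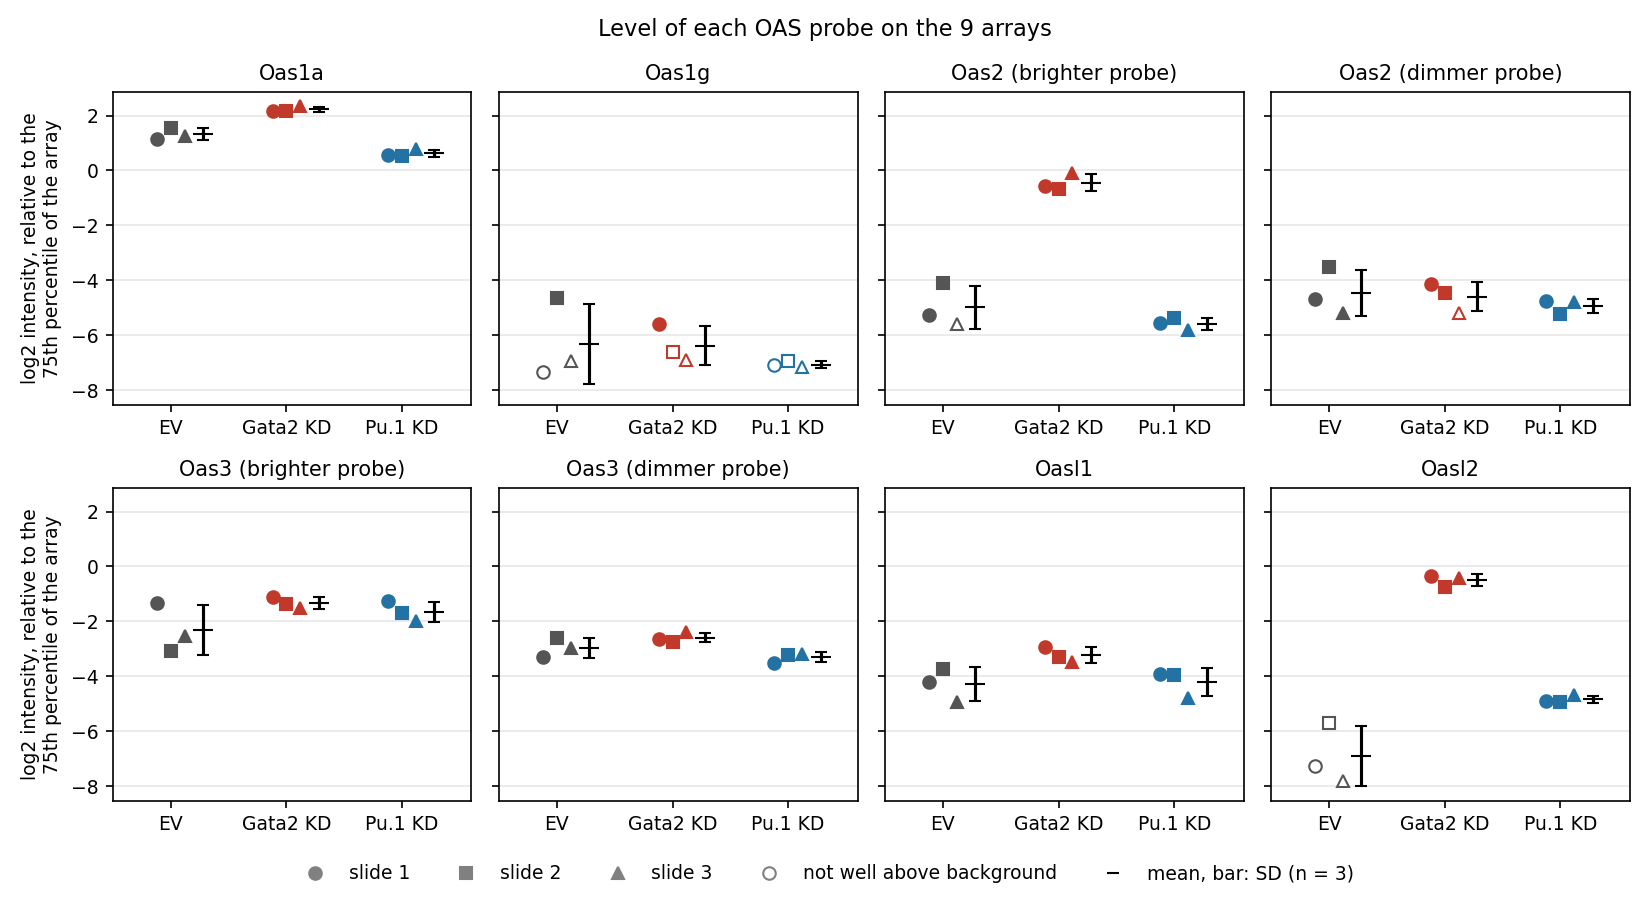
Level of each of the 8 OAS probes (y axis, log2 intensity minus that of the array's 75th percentile), with 3 arrays per group, point shape for the slide, open points for arrays on which the probe was not well above background, and a bar for the mean and SD (n = 3). The Gata2 KD points of Oas2 (brighter probe) and Oasl2 lie between -0.74 and -0.11, far above the EV points, while the dimmer Oas2 probe overlaps in all 3 groups.

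Oas1a was well above background on all 9 arrays (probe A_52_P337357). Its level was 1.15, 1.26 and 1.56 in EV replicates 1 to 3, 2.34, 2.16 and 2.17 in Gata2 KD, and 0.52, 0.78 and 0.57 in Pu.1 KD. The 3 groups did not overlap, with Gata2 KD highest and Pu.1 KD lowest. Oas1a rose 1.86-fold in Gata2 KD (log2 change 0.90, SE 0.15, adjusted p = 0.0117), by 0.60 to 1.08 within the slides. It was no longer called once Gata2 KD replicate 2 was left out, where the change was 0.93 and the adjusted p = 0.0501. In Pu.1 KD the difference from EV was -0.70 (SE 0.15), negative on every slide (-1.04 to -0.48), and did not pass the threshold (adjusted p = 0.0576, and 0.0399 with the slide as a block). The Gata2 KD level was 3.03-fold above that of Pu.1 KD (log2 difference 1.60, adjusted p = 0.000302). Oas1a shares much of its sequence with other OAS1 genes, so part of its signal may come from a paralog, which was not tested because probe sequences were not used here.

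The Oas1g probe (A_51_P355267) was well above background on 1 EV array, 1 Gata2 KD array and 0 Pu.1 KD arrays and entered no test. Its level was -7.34, -6.95 and -4.64 in EV, -6.92, -6.63 and -5.59 in Gata2 KD and -6.94, -7.18 and -7.10 in Pu.1 KD. The only EV value above background was that of the third EV array, so no level of Oas1g in EV can be given from the other arrays. Oas1g and Oas1a share the same promoter cores in the stretches above, yet only Oas1a had a probe bright enough to be compared.

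Oas2 was measured by a pair of probes that disagreed. The one with the higher mean intensity (A_51_P277994) read -5.28, -5.59 and -4.10 in EV, of which the value of replicate 2 was not well above background. It read -0.11, -0.69 and -0.55 in Gata2 KD and -5.39, -5.81 and -5.56 in Pu.1 KD. Every Gata2 KD array lay far above all others, and the EV and Pu.1 KD arrays overlapped. The level in Gata2 KD was 23.3-fold that of EV (log2 change 4.54, SE 0.36, 95% interval 3.70 to 5.38, adjusted p = 0.000202) and 35.2-fold that of Pu.1 KD (log2 difference 5.14, adjusted p = 5.31e-05). Within the slides the change against EV was 3.41 to 5.48. Because the EV spots are dim, the size depends on the background correction. The log2 change was 2.51 with normexp correction and 3.03 in the deposited log2 values, with adjusted p = 2.59e-06 and 2.16e-06. Pu.1 KD differed from EV by -0.60 on this probe (95% interval -1.43 to 0.24, adjusted p = 0.661).

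The dimmer Oas2 probe (A_52_P587071) read -4.67, -5.18 and -3.53 in EV, -5.18, -4.47 and -4.12 in Gata2 KD (replicate 1 not well above background) and -5.24, -4.81 and -4.77 in Pu.1 KD. The groups overlapped. It gave a change of -0.13 in Gata2 KD (95% interval -1.12 to 0.85, adjusted p = 0.982), an interval that does not reach that of the other probe. Over 19 alternatives this change ran from -0.49 to 0.33 and was called in none. The mean of both probes rose by 2.20 in Gata2 KD (adjusted p = 0.00862). The rise of Oas2 thus rests on 1 probe, and whether the probes read different transcripts was not tested.

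Oas3 was well above background on all 9 arrays with both probes and was called in no comparison of the main fit. The brighter probe (A_51_P472867) read -1.31, -2.55 and -3.07 in EV, -1.51, -1.38 and -1.10 in Gata2 KD and -1.71, -1.99 and -1.27 in Pu.1 KD. EV had the widest spread (SD 0.90, n = 3), against 0.21 in Gata2 KD and 0.36 in Pu.1 KD, and EV replicate 1 lay among the KD arrays. The difference of Gata2 KD from EV was 0.98 (95% interval 0.03 to 1.93, adjusted p = 0.322), and it was called without EV replicate 1 (1.48, adjusted p = 0.0280). That of Pu.1 KD was 0.65 (adjusted p = 0.683). The dimmer probe (A_52_P516296) read -3.31, -2.98 and -2.61 in EV, -2.40, -2.74 and -2.63 in Gata2 KD and -3.24, -3.18 and -3.52 in Pu.1 KD. Its Gata2 KD arrays all lay above its Pu.1 KD arrays, by 0.72 (adjusted p = 0.0687, and 0.0355 with the slide as a block). This difference was called in 5 of 20 alternatives. The same probe differed from EV by 0.38 in Gata2 KD and by -0.35 in Pu.1 KD (adjusted p = 0.506 and 0.640).

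Oasl1, the OAS-like gene without enzyme activity, was well above background on every array (probe A_51_P437309). It read -4.20, -4.95 and -3.73 in EV, -3.49, -3.29 and -2.93 in Gata2 KD and -3.95, -4.79 and -3.91 in Pu.1 KD. Gata2 KD lay above both other groups without overlap, and EV and Pu.1 KD overlapped. The difference from EV was 1.06 in Gata2 KD (2.09-fold, 95% interval 0.24 to 1.88) and did not pass the threshold (adjusted p = 0.178). It passed with the slide as a block (adjusted p = 0.0281), with quantile normalization (0.00211) and in the deposited log2 values (0.00282). In Pu.1 KD the difference was 0.08 (95% interval -0.74 to 0.90).

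Oasl2, the OAS-like gene that keeps synthetase activity, read well above background on none of the 3 EV arrays (probe A_51_P387123). It read -7.26, -7.80 and -5.69 in EV, -0.41, -0.74 and -0.35 in Gata2 KD and -4.94, -4.69 and -4.90 in Pu.1 KD. The groups did not overlap, and Pu.1 KD lay between the others, above background on all 3 arrays. From the lowest level well above background on each EV array, the level in Gata2 KD was 41.5-fold higher, on these processed intensities. That is no strict lower bound, since some spots above this lowest level were still not well above background. On EV replicate 2 it was -6.18, where the brighter Oas2 probe at -5.59 was not well above background. The measured Oasl2 means were -0.50 in Gata2 KD and -6.92 in EV (adjusted p = 0.000114). Normexp correction gave a fitted change of 2.57 (adjusted p = 5.07e-07) and the deposited log2 values 3.30 (adjusted p = 4.67e-07), both read against the same dim EV spots. Pu.1 KD (mean -4.84) was 2.05-fold above EV by the same measure, no strict bound either, and was not called (adjusted p = 0.0616). The fitted change of 2.07 became 0.29 with normexp correction (adjusted p = 0.437) and 0.51 in the deposited log2 values (adjusted p = 0.0744). The 2.05-fold is thus given for these processed intensities alone. That comparison also depends on the third EV array, since without it the fitted change went from 2.07 to 2.69 and was called (adjusted p = 0.00415). Gata2 KD against Pu.1 KD, both above background on all arrays, gave 20.3-fold (log2 difference 4.34, SE 0.46, 4.20 to 4.55 within the slides, adjusted p = 0.000535). This difference too was smaller with normexp correction (2.28, adjusted p = 6.12e-07) and in the deposited log2 values (2.79, adjusted p = 5.92e-07), and called in both.

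Read against Pu.1 KD, 3 of the 5 tested members were higher in Gata2 KD (Oas1a, Oas2 and Oasl2) and none lower, beside 6.77% and 5.6% of all genes. Oas2 was again counted by the probe chosen through its Gata2 KD level. Of the 7 tested probes, 5 lay above Pu.1 KD without overlap and none below it, as 11.8% and 14% of all tested probes did. The median difference of the members was 1.60, beside -0.03 for all genes. Across the 9 arrays the members did not all vary alike. Pearson's r was 0.93 between Oas1a and Oas2 and 0.91 between Oas2 and Oasl2, and 0.14 between Oas1a and Oas3. After subtracting the group means, these became 0.64, 0.89 and -0.81. The arrays share 3 groups and 3 slides, so these values describe the arrays only.

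The other OAS1 copies, none of them a member, were called in neither comparison with EV by limma (2 of 5, Oas1c and Oas1f, had an unadjusted p under 0.05 in Gata2 KD and 0 in Pu.1 KD). Oas1f, which sits between Oas1b and Oas1h, read 1.03, 1.77 and 1.32 in EV, 2.73, 2.13 and 1.87 in Gata2 KD and 0.63, 1.11 and 0.62 in Pu.1 KD. Its groups stood in the same order as those of Oas1a, with EV and Pu.1 KD overlapping. The change was 0.87 in Gata2 KD (adjusted p = 0.154) and -0.58 in Pu.1 KD (adjusted p = 0.474). Within the slides these ran from 0.82 to 0.96 and from -0.69 to -0.41, and with the slide as a block both were called (adjusted p = 0.00556 and 0.0353). Gata2 KD exceeded Pu.1 KD by 1.46 (adjusted p = 0.0122), a call that went when Pu.1 KD replicate 1 (1.38, adjusted p = 0.0562) or replicate 3 (1.37, adjusted p = 0.0551) was left out. Oas1c differed from EV by 0.69 in Gata2 KD (adjusted p = 0.0942, and 0.0193 with the slide as a block) and by 0.38 in Pu.1 KD (adjusted p = 0.508). Its window held 2 overlapping ISRE cores on the reverse strand, at -114 to -105 and -108 to -99. Oas1e differed by 0.47 (adjusted p = 0.353, and 0.0476 without EV replicate 3), Oas1h by 0.42 (adjusted p = 0.753) and Oas1d by -0.20 (adjusted p = 0.947) in Gata2 KD.

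Of 3 genes linked to the turnover or action of the oligoadenylates, limma called none in any of the 3 comparisons (1 had an unadjusted p under 0.05 in Gata2 KD against EV, 2 in Pu.1 KD against EV and 1 between the knockdowns). Abce1, which recycles ribosomes, differed from EV by -0.45 in Gata2 KD and by -0.48 in Pu.1 KD (adjusted p = 0.107 and 0.111), and by 0.08 in Gata2 KD on its dimmer probe. Pde12, a phosphodiesterase that degrades the oligoadenylates, differed by -0.19 and -0.25. Akap7, which also holds such an activity, differed by 0.18 and 0.68 (adjusted p = 0.847 and 0.109).

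**Figure D2:**
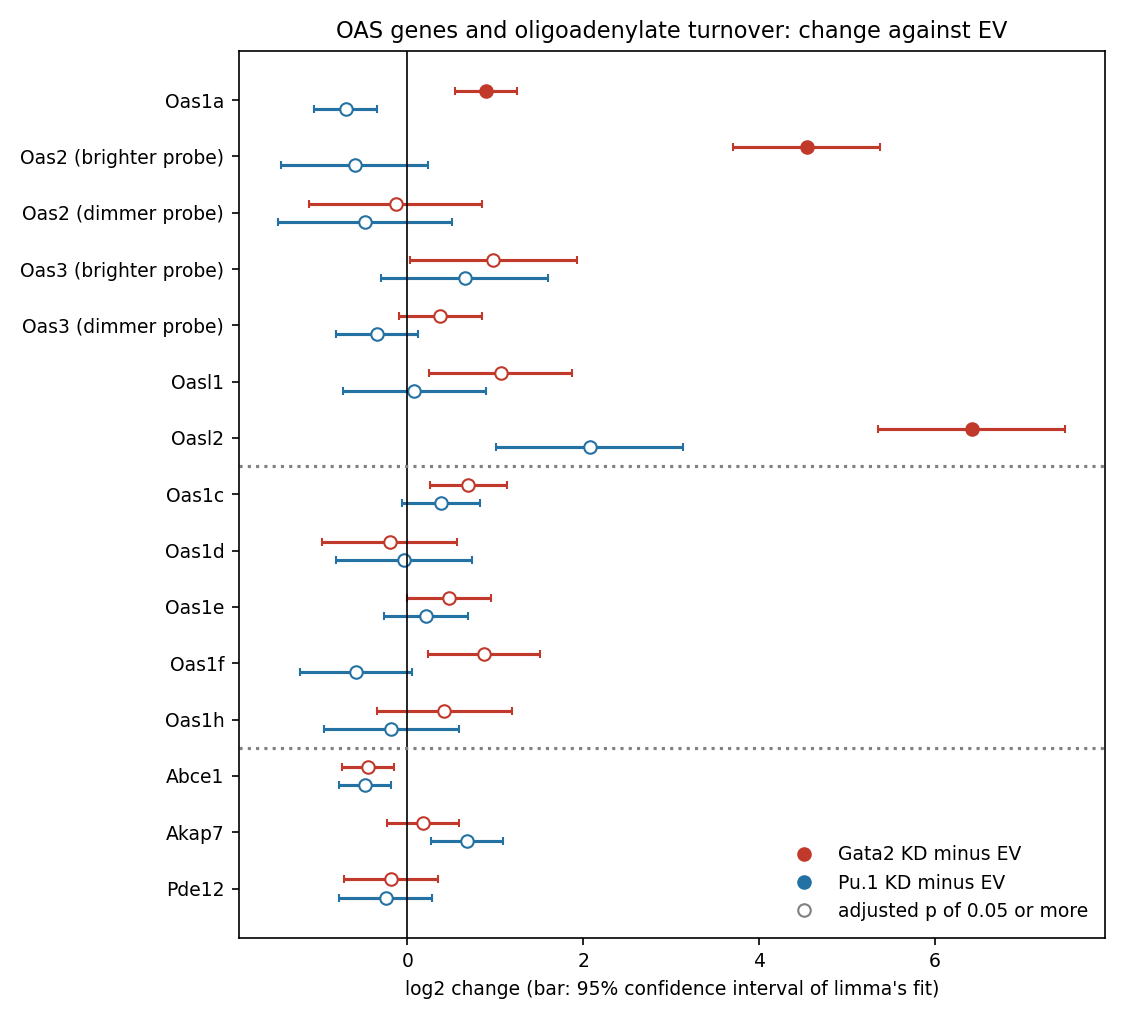
Log2 change against EV for the 7 tested OAS probes, the other OAS1 genes and the genes of oligoadenylate turnover (the 3 blocks parted by dotted lines), with the 95% interval of limma's fit, filled where the adjusted p was under 0.05. The filled points are Oas1a (0.90), Oas2 on its brighter probe (4.54) and Oasl2 (6.42), all in Gata2 KD, and the Oasl2 values are read against EV spots that were not well above background.

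Among 8 genes that sense double-stranded RNA or its products, 7 were tested, and 3 of them rose in Gata2 KD and none fell. Zbp1, a sensor of left-handed nucleic acid, rose by 3.35 (adjusted p = 4.49e-05), Dhx58, a regulator of RIG-I-like receptors, by 2.25 (adjusted p = 0.000818), and Ifih1, which encodes the receptor MDA5, by 1.06 (adjusted p = 0.0119, on the brighter of its probes, the other giving 0.31). Eif2ak2, the kinase PKR that shuts down translation on the same ligand as the OAS enzymes, differed by 0.38 (adjusted p = 0.392), and Ddx58, which encodes RIG-I, by 0.53 (adjusted p = 0.106, and 0.0355 with the slide as a block). In Pu.1 KD only Zbp1 was called (0.96, adjusted p = 0.0488), and it lost the call when any array other than EV replicate 3 was left out. Tlr3 was too dim to test.

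Of 7 listed interferon genes, which are not all that the mouse has, 5 were tested. None of the 5 was called by limma in any comparison, and 0 had an unadjusted p under 0.05. Their changes in Gata2 KD ran from -0.19 to 0.24. Ifna4 was not well above background on EV replicate 3 and Gata2 KD replicate 1, and such dim spots limit what the test can show. Ifnb1, encoding interferon beta, read -3.87, -4.76 and -3.61 in EV and -4.22, -3.80 and -3.50 in Gata2 KD, which overlap (change 0.24, adjusted p = 0.924). Of the 7 receptor and kinase genes, 4 rose in Gata2 KD, all of them receptor chains. These were Ifnar1 (0.82), Ifnar2 (0.89), Ifngr1 (1.12) and Ifngr2 (1.44), with adjusted p from 0.00144 to 0.0210. Ifnar1 was no longer called without Gata2 KD replicate 2 or 3, nor Ifnar2 without EV replicate 1 or 2 or Gata2 KD replicate 1 or 2, so that the count was 2 without Gata2 KD replicate 2. Ifngr1 and Ifngr2 were called whichever array was left out. The kinase genes Jak1, Jak2 and Tyk2 were not called in Gata2 KD. Jak2 fell by 1.04 in Pu.1 KD (adjusted p = 0.0125), a call lost without EV replicate 2 or any 1 of the Pu.1 KD arrays.

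Of 8 genes for STAT and IRF factors, 4 rose in Gata2 KD and none fell. Irf8, a factor of monocyte and dendritic cell development, read -1.87, -1.59 and -1.63 in EV, 2.74, 2.68 and 2.63 in Gata2 KD and -2.07, -2.07 and -2.20 in Pu.1 KD. It rose 20.8-fold on this probe (log2 change 4.38, SE 0.13, adjusted p = 3.47e-06) and 5.12-fold on its dimmer probe (log2 change 2.36, SE 0.25, adjusted p = 0.000819). Irf7, the interferon-inducible factor that drives interferon genes, rose by 1.67 (adjusted p = 0.00136), Irf5 by 1.47 and Irf1 by 0.80. The other probe of Irf1 gave 0.42 and was not called. Stat2 and Irf9, which act together on the ISRE, differed by 0.54 and 0.40 and did not pass (adjusted p = 0.120 and 0.213), though Stat2 did with the slide as a block (adjusted p = 0.0363). In Pu.1 KD Irf5 fell by 0.94 (adjusted p = 0.0176), and the call was lost without EV replicate 1, EV replicate 2 or any 1 of the Pu.1 KD arrays.

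Of 4 feedback genes Socs3 rose (1.03) and Socs1 fell (-0.85, adjusted p = 0.0167) in Gata2 KD, and Ptpn6, a phosphatase of cytokine receptors, rose (0.87, and 0.37 on its dimmer probe, which was not called). Without Gata2 KD replicate 2 none of these 3 was called by limma, and single arrays also decided the calls of Ptpn6 (without EV replicate 1 or 2, Gata2 KD replicate 1 or 3 or Pu.1 KD replicate 1) and Socs1 (without EV replicate 2 or Gata2 KD replicate 3). Usp18, which removes ISG15 from proteins and dampens type I interferon signalling, differed from EV by -0.56 in Gata2 KD (adjusted p = 0.101) and fell by 0.96 in Pu.1 KD (adjusted p = 0.0182), and leaving out EV replicate 2, EV replicate 3 or any 1 of the Pu.1 KD arrays took that last call away.

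Other interferon-stimulated effectors were measured for 9 of 12 listed genes, and 8 were tested. In Gata2 KD 5 rose and none fell, and in Pu.1 KD limma called 0 (3 had an unadjusted p under 0.05). In Pu.1 KD Rsad2 was called higher with quantile normalization or without EV replicate 3, and Samhd1 was called lower in 4 of the alternatives. The changes that follow are those in Gata2 KD. Ifit3, which binds foreign RNA together with Ifit1, rose by 4.35 (adjusted p = 0.000752), Rsad2 (viperin) by 2.73 (adjusted p = 0.00115), Isg15 by 1.97, Ifit1 by 1.63 and Cmpk2, the neighbour of Rsad2, by 0.97. Ifit1 and Ifit3 were well above background on 2 of the 3 EV arrays. The other probes of Rsad2 gave 0.27 and -0.06 and were not called. Ifit2 (0.17) and Bst2 (0.29) were not called. The count of 5 became 3 without EV replicate 1, Gata2 KD replicate 1 or Gata2 KD replicate 3, which took away Ifit1 and Cmpk2, while Ifit3, Rsad2 and Isg15 were called whichever array was left out.

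**Figure D3:**
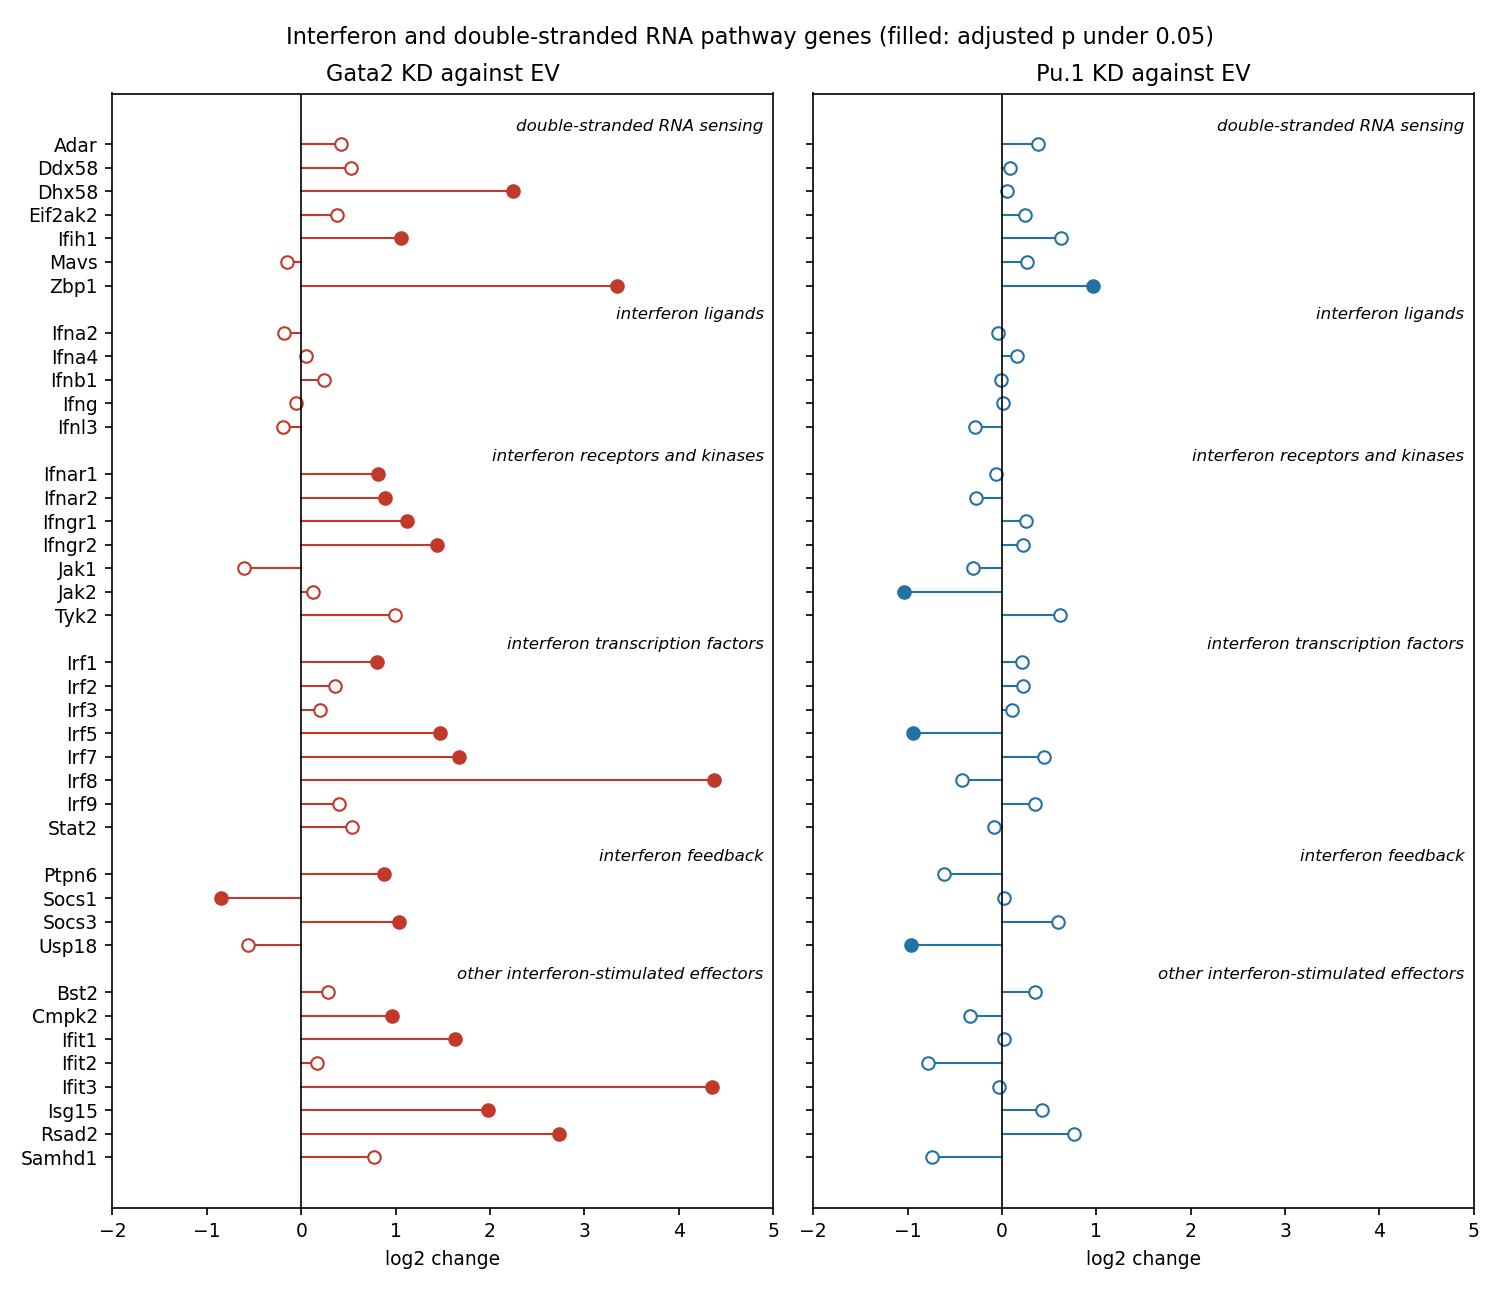
Log2 change against EV of the tested genes in 6 lists of the interferon and double-stranded RNA pathway, Gata2 KD in the left panel and Pu.1 KD in the right, filled where the adjusted p was under 0.05. The interferon genes lie within -0.19 to 0.24 of EV in Gata2 KD, while Irf8 (4.38), Ifit3 (4.35) and Zbp1 (3.35) lie farthest to the right.

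The genes whose level followed the mean standardized level of the 5 members most closely over the 9 arrays, among 15487 genes ranked, were Ypel3 (Pearson's r 0.993), Inhba (0.993), Gpr65 (0.992), Shtn1 (0.990) and Gbp2 (0.987). Gbp2 is an interferon-induced guanylate-binding protein and Inhba encodes the activin A subunit. Their changes in Gata2 KD were 0.95, 2.93, 2.11, 2.97 and 1.02. The ranking is over 9 arrays in 3 groups, and a gene raised only in Gata2 KD is bound to rank high.

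Some marker lists of blood cell types moved as well, and not all in the same direction. All 6 progenitor line markers, Kit and Cd34 among them, were well above background on all arrays. So were all 10 neutrophil markers, so detection alone does not identify the cells. Of the 6, 2 rose and 1 fell in Gata2 KD, and 1 rose and 1 fell in Pu.1 KD. Of 10 neutrophil markers, 10 rose in Gata2 KD and 8 fell in Pu.1 KD. Their summed linear level, in units of the 75th percentile, was 241 to 270 in EV, 1131 to 1348 in Gata2 KD and 106 to 125 in Pu.1 KD. Of 8 tested monocyte and macrophage markers, 6 rose in Gata2 KD. Their sum was 4.57 to 5.26 in EV, 39.6 to 42.9 in Gata2 KD and 2.57 to 3.16 in Pu.1 KD. Mrc1, 1 of the 8, was not well above background on any EV or Pu.1 KD array. It thus entered the test through its Gata2 KD arrays alone. Of 8 tested mast cell and basophil markers, 5 fell in Gata2 KD (sum 111 to 129 in EV, 22.9 to 24.6 in Gata2 KD, 71.7 to 79.8 in Pu.1 KD). Of 10 dendritic cell markers, which include Bst2, none was called by limma in any comparison (0 had an unadjusted p under 0.05), and their sums were 18.3 to 28.2 in EV, 24.7 to 31.2 in Gata2 KD and 28.4 to 30.1 in Pu.1 KD. Of 7 tested lymphoid markers none was called by limma against EV (1 had an unadjusted p under 0.05 in Gata2 KD and 0 in Pu.1 KD), and their sums were 10.5 to 14.5, 8.71 to 10.2 and 9.97 to 10.8 in the same order. Of 9 tested erythroid and megakaryocyte markers, 1 rose and 2 fell in Gata2 KD and 4 rose in Pu.1 KD, and their sums were 60.2 to 80.2, 63.1 to 97.2 and 150 to 180. The neutrophil and monocyte sums stood in the order Gata2 KD, EV, Pu.1 KD. Between Pu.1 KD and EV limma called neither Oas1a (adjusted p = 0.0576) nor Oasl2 (adjusted p = 0.0616), so their orders are not compared with it. The part of these cells in the OAS changes was not tested.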

How the data were processed

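Each of 9 samples of total RNA, labeled with Cy3, was read on an Agilent whole mouse genome array of design build mm8. The authors deposited Agilent Feature Extraction 10.1.1.1 output with the processed intensity of each spot (background-subtracted, not normalized between arrays), and 1 table of log2 values for the 9 arrays whose processing is not given in detail in the sources used here. Groups came from the sample titles.

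The main value was log2 processed intensity minus the 75th percentile of the array, with control and outlier-flagged spots left out (47 to 96 flagged per array) and spots of a probe averaged. Probes well above background on at least 3 arrays and with 2 or more values in each group were tested (36585 of 41174). The test was a two-sided moderated test of the 3 group means (limma 3.58.1 under R 4.3.3, eBayes, Benjamini-Hochberg, threshold 0.05). The method was tested on simulated data with independent noise, which says nothing of deviations shared within a slide. RefSeq accessions (GRCm38.p6) named 23374 probes of 16535 genes. Since the builds differ, array coordinates are not given. The probe with the highest mean level stood for a gene. Fits and tests used the measured levels, also those not well above background. For Oasl2, with no EV array well above background, a fold from the lowest level well above background is given besides. The number of arrays limits the precision.

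All members, the genes of the pathway and marker lists and the 5 genes most like the members were named. Some genes of these lists are not reported here. Members and lists were chosen with earlier results of these data known. The alternatives, 21 fits, changed the scaling (median), normalization (quantile), background correction (normexp, offset 50, on the median signal), values (the deposited log2 table), filter, outlier spots, variance model, groups in the fit, replicate or slide block and probe rule, or left out an array.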

Additional observations from a re-analysis of the deposited data

How the results depend on the processing

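For Gata2 KD against EV, the count of called members, 3, was 1 with the filter on all 9 arrays, which removes the Oas2 and Oasl2 probes, 2 with the replicate block, only the groups compared or scaling to the median, and 4 with the slide as a block, quantile normalization or the deposited log2 values. Leaving out each array gave 2 to 4. Oas2 and Oasl2 stayed called wherever they were tested, and Oas1a had adjusted p from 0.000855 to 0.0585, with 0.0585 under the replicate block. For Gata2 KD against Pu.1 KD the count, 3, was 1 with the filter on all 9 arrays, 4 (Oasl1 added) with the slide as a block, quantile normalization or the deposited log2 values, and 3 to 3 with an array left out. For Pu.1 KD against EV the count, 0, was 1 with the deposited log2 values, that filter, normexp or the slide as a block (Oas1a), 1 with scaling to the median or without EV replicate 3 (Oasl2), and 2 with trend and robust eBayes or quantile normalization (both). Leaving out each array gave 0 to 1. The adjusted p of Oas1a ran from 0.00775 to 0.332 there. Samples with the same replicate number deviated together in 4 of 9 pairs (r over 0.1), and samples on the same slide did so in 8 of 9. The numbers were thus not taken to pair the samples, though the slide deviations could hide a weaker pairing. Scaling moved no median of all probes by as much as 0.1. No alternative reversed a called change. Signal over background limits Oas1g and the EV levels of Oas2 and Oasl2.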
